A study of Homo sapiens with 4 samples.

Results

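The genes described here start on the long arm of chromosome 1, between 200 and 210 Mb of GRCh38. Of 60614 gene IDs in the count tables, 279 started in this 10 Mb window by GENCODE release 29. The rule sets 12 of them aside, which leaves 267 members, 108 protein-coding and 159 of other biotypes. The window was chosen on the log2 fold changes between the genotypes in these same libraries, so those fold changes are given as a description, with no test of the window. The 10 Mb before it and the 10 Mb after it serve as flanking windows.

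The RNA-seq counts come from DU145, an established human prostate cancer cell line, in 2 genotypes with 2 libraries each: cells with SPOP-F133V and wild-type cells. Both were grown in the same medium with serum, and the labels name no treatment. SPOP is the adaptor through which a CUL3 ubiquitin ligase binds its substrates, and F133V changes its substrate-binding domain. Whether the mutant cells are 1 clone, a pool or an overexpression line is not in the labels, nor is whether replicates came from separate cultures, so an effect of the mutation cannot be told apart from how each line was made, and the spread between replicates may be technical.

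This stretch, the cytogenetic band region 1q32, is known for gains in several cancers and holds MDM4, an inhibitor of p53. It also holds an interleukin cluster of the IL10 family, part of the complement regulator cluster, a group of muscle and cytoskeleton genes, and epithelial genes such as LAD1, which codes for an anchoring protein. Most of these genes have unrelated functions. In bulk RNA, fewer cells that express a gene and less RNA per cell cannot be told apart.

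The window holds 10 annotated miRNA genes. The mature sequences of 3 are shown because the genes whose spans hold them, MIR29B2CHG and LEMD1, were among the higher genes described below. Capitals mark the seed, bases 2 to 8, and the sequences are from RefSeq on GRCh38.p14. These short RNAs themselves were not measured: MIR29B2 and MIR29C had 0 reads in all 4 libraries and MIR135B had 1 read in all, in F133V replicate 2.
hsa-miR-29b-3p: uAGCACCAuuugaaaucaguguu
hsa-miR-29c-3p: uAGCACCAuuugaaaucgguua
hsa-miR-135b-5p: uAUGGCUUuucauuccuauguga
The first pair share the seed AGCACCA, while miR-135b-5p has the seed AUGGCUU. The hairpins of miR-29b-2 and miR-29c lie on the minus strand within the span of MIR29B2CHG, and that of miR-135b within the span of LEMD1. LEMD1 is on the minus strand, and its RefSeq promoter lies at 205422007 to 205422306. The miR-135b-5p sequence, at 205448361 to 205448383, is upstream of it. A transcript from that start would not hold miR-135b, and counts per gene do not separate transcripts.

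The 4 libraries held 35173245 to 39642063 reads in genes. SPOP stood at 1171 and 1151 CPM in the F133V libraries and at 844 and 906 CPM in the libraries of wild-type cells; counts per gene cannot tell the alleles apart. CPM here are counts scaled to library size after TMM normalization. The epithelial markers KRT8, KRT18, KRT19 and EPCAM summed to between 2120 and 2322 CPM in F133V and between 1742 and 1751 CPM in wild-type libraries. Of the luminal prostate markers, KLK3 was at 0 and TMPRSS2 under 1 CPM in every library, and the 3 markers of that list summed to 18.4 to 25.3 CPM. Hematopoietic markers summed to 1.32 to 2.55 CPM, endothelial to 0.168 to 0.708 CPM and fibroblast to 6.37 to 8.33 CPM over the libraries. All 3 sums were above the wild-type range in both F133V libraries, and their part in the results was not tested. F133V minus wild-type fold changes followed the GC content of the transcripts across genes (Spearman rho 0.73 over 11818 genes, which are not independent replicates), and the F133V replicates differed from each other in the same way (rho 0.77 for the second library against the first), with a rho of -0.07 between both wild-type libraries. Each fold change is therefore given without adjustment and then from a fit with an offset for GC content and transcript length, called GC-adjusted.

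Of the 267 members, 93 had enough reads to be tested, 73 protein-coding and 20 not. The other 174 had at most 13 reads in any library, and 99 of them had 0 reads in all 4. The tested members had more RNA in F133V cells at the median: the median log2 fold change, F133V minus wild-type, was 0.29, with quartiles of -0.03 and 0.58, beside 0.02 over all 17539 tested genes. After GC adjustment it was 0.21, with quartiles of 0.03 and 0.51, beside 0.02 over all genes. A gene is called here when the edgeR quasi-likelihood test passed a Benjamini-Hochberg adjusted threshold of 0.05 over all tested genes. Among members 46 were called higher and 16 lower, and 31 were not called; of all tested genes 27.2% were called higher and 27.6% lower. After GC adjustment 44 were called higher, 6 lower and 43 not, against 27.6% and 24.5% of all genes. In either direction, 54.8% of all tested genes were called, and 52.1% after GC adjustment. The counts are a description, since this contrast chose the window. Leaving out wild-type replicate 1 or 2 gave 9 and 10 members called lower, against 16 with all libraries.

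Without GC adjustment, the median member moved alike in the replicates of each genotype. Relative to each gene's mean over the 4 libraries, the median log2 deviation of tested members was 0.14 in the first and 0.13 in the second F133V library. It was -0.15 in the first and -0.14 in the second wild-type library. Between replicates, the median member differed by -0.05 in F133V cells and by 0.00 in wild-type cells (log2, replicate 2 minus replicate 1). The sum of reads did not follow the median. All members together took 0.384% and 0.374% of the gene reads in both F133V libraries, against 0.376% and 0.379% in wild-type libraries, so the genotypes overlapped. NUCKS1, the member with the most reads, was lower in F133V cells without GC adjustment.

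Both flanking windows had lower medians without adjustment. In the 10 Mb before the window 14 genes were tested, with a median log2 fold change of -0.65, and in the 10 Mb after it 42 genes, with a median of -0.17. The median of members lay 0.57 above that of both flanks together. The flanks held genes of lower GC content, with a median of 35.7% before and 42.7% after the window, against 50.6% among members. After GC adjustment the flank medians were 0.00 and 0.06, and the members lay 0.16 above both together. At the borders, the nearest tested gene before the window, NEK7, had a log2 fold change of -0.67 (GC-adjusted 0.01), and the first tested member, NR5A2, -0.19 (0.31). The last tested member, UTP25, had -0.46 (-0.15), and the nearest tested gene after the window, SERTAD4-AS1, 0.18 (0.05).

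**Figure D1:**
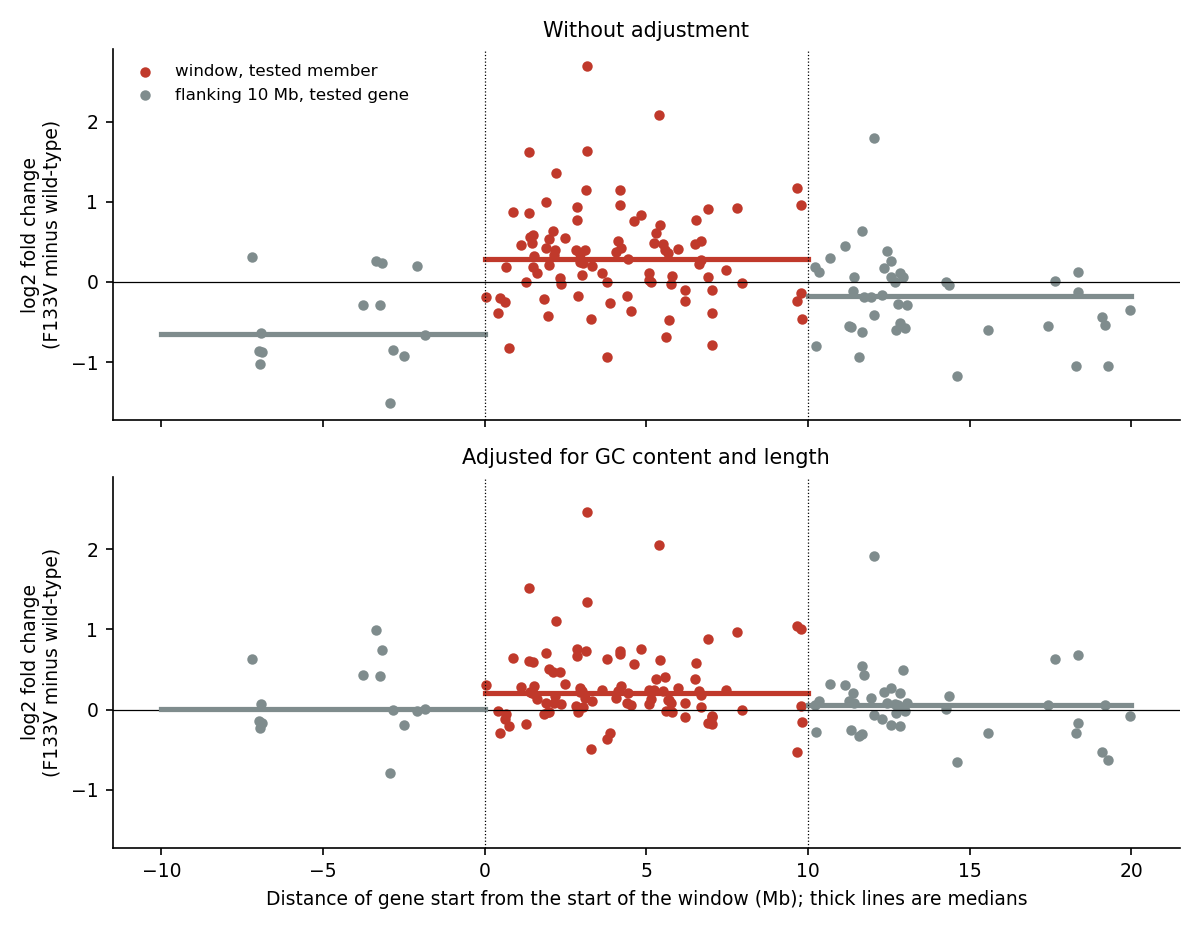
Log2 fold change (F133V minus wild-type) of each tested gene against the distance of its start from the start of the window in Mb, without adjustment (top) and adjusted for GC content and transcript length (bottom); points are genes, thick lines are medians, dotted lines are the borders. Members had medians of 0.29 and 0.21, the flank before -0.65 and 0.00, and the flank after -0.17 and 0.06.

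Across the genome, 264 windows of 10 Mb held at least 20 tested genes. The window ranked 4 from the highest by median log2 fold change, and 3 after GC adjustment. With the 12 genes set aside put back, 104 tested genes had a median of 0.23 and ranked 11, and 0.22 and rank 3 after GC adjustment. The window after it ranked 160 and 66, and the window before it held too few tested genes to rank.

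**Figure D2:**
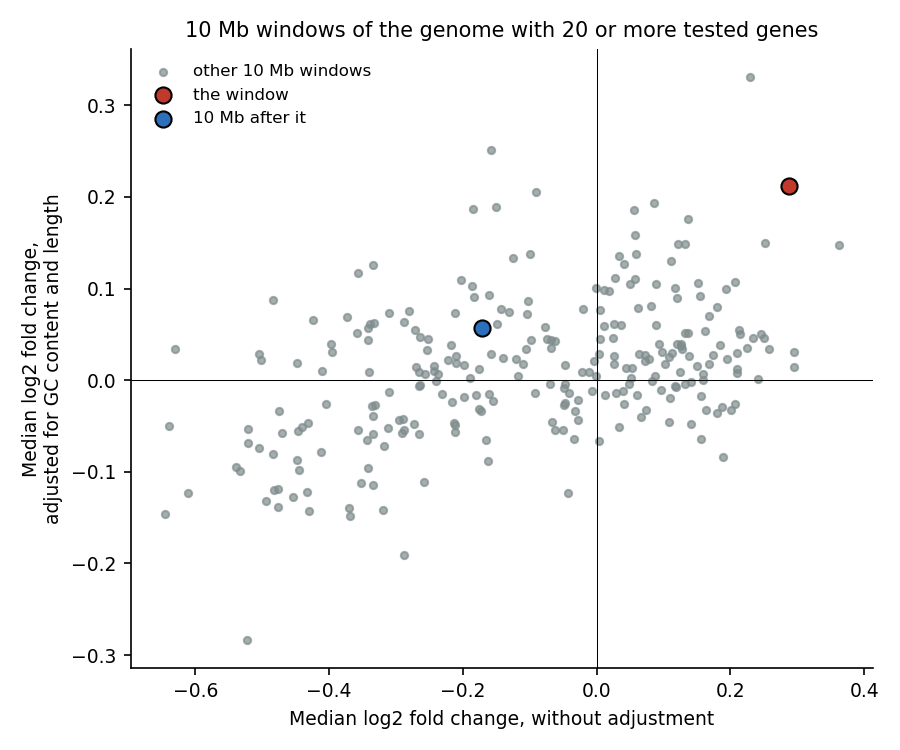
Median log2 fold change (F133V minus wild-type) of the tested genes in each of 264 windows of 10 Mb, without adjustment on the horizontal and adjusted for GC content and transcript length on the vertical axis; each point is 1 window. The chromosome 1 window lies at 0.29 and 0.21, and the window after it at -0.17 and 0.06.

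Higher and lower members were mixed along the window. In bins of 1 Mb, the GC-adjusted median ran from 0.18 to 0.26 in all 6 bins from 1 to 7 Mb into the window, which held 9 to 16 tested members each. It was -0.06 in the first bin (7 tested members), -0.04 in the eighth (6) and 0.04 in the last (5). In the ninth bin none of 6 members was tested. Within the bins single GC-adjusted values spread widely, from -0.49 to 2.46 in the fourth bin and from 0.05 to 0.76 in the fifth, where all 10 tested members lay above 0. Without adjustment, 8 members of the fifth bin were called higher and 2 lower. Those 2, MDM4 and PPP1R15B, were not called after GC adjustment.

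Members of higher GC content and of lower level carried the higher median. In the band of GC content under 42%, 11 members had a median log2 fold change of -0.43 and all 3977 tested genes of that band -0.52; between 42% and 46%, 11 members had -0.18 and all genes -0.17. From 46% to 50%, 23 members had 0.22 and all genes 0.01; from 50% to 55%, 18 members had 0.47 and all genes 0.15; at 55% and over, 30 members had 0.48 and all genes 0.28. After GC adjustment the medians of members in these 5 bands were -0.02, 0.05, 0.24, 0.27 and 0.22, and those of all genes lay between 0.01 and 0.04. By level, 17 members under 1 CPM had a median log2 fold change of 0.64, 12 at 1 to 4 CPM 0.46 and 21 at 4 to 16 CPM 0.49. The 26 members at 16 to 64 CPM had 0.01 and the 17 at 64 CPM and over 0.08. Over all genes these 5 level bands had medians of 0.18, 0.14, 0.03, -0.05 and -0.02. After GC adjustment the members' medians from the lowest to the highest level band were 0.58, 0.36, 0.29, 0.07 and 0.09. Those of all genes were 0.14, 0.11, 0.06, -0.03 and -0.03, so genes of low level also stood higher across the genome. A gene of low level is tested only where it has reads, and 6 members passed that filter through the F133V libraries only and 1 through the wild-type libraries only. The former, TNNT2, CHI3L1 and 4 noncoding or pseudogene members among them, were bound to stand higher in F133V cells.

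**Figure D3:**
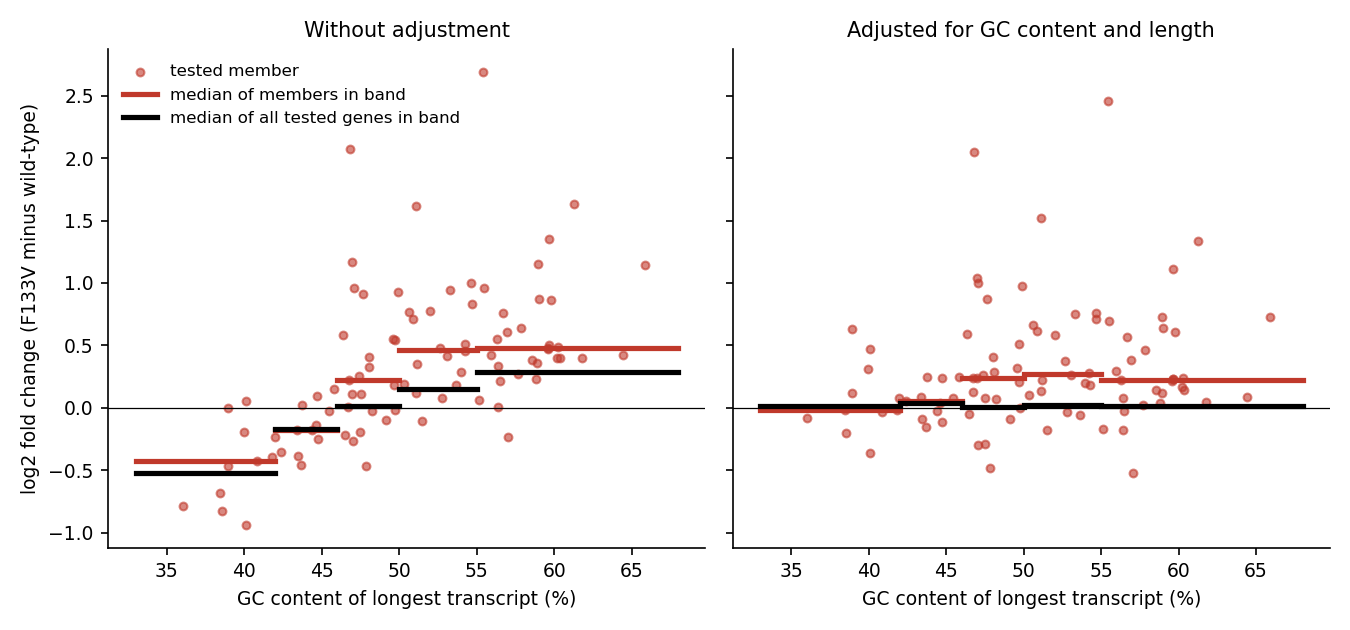
Log2 fold change (F133V minus wild-type) of each tested member against the GC content of its longest transcript in percent, without adjustment (left) and adjusted for GC content and length (right); red lines are medians of members and black lines medians of all tested genes in 5 bands of GC content. Members and all genes both lie below 0 under 42% GC content without adjustment, and members lie above all genes from 46% upward in both panels.

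Of the 8 largest rises among members at 5 CPM or more, 7 are described here: GOLT1A, IL24, INAVA, LAD1, NFASC, LRRN2 and BLACAT1. In each of the 8, both F133V libraries were above both wild-type libraries, as in 58 of 93 tested members, against 40.1% of all tested genes; this order chose them. In either direction the genotypes did not overlap in 80 members, against 78% of all tested genes. All 8 were also called higher after GC adjustment.

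IL24 (ENSG00000162892.16, chromosome 1, 206897443 to 206904139, plus strand), a cytokine of the IL10 family, was at 20.1 and 19.5 CPM in F133V and 10.6 and 10.5 CPM in wild-type libraries. Its mean level was 19.8 ± 0.430 CPM in F133V cells against 10.5 ± 0.0437 CPM in wild-type ones (SD, n = 2), and the gap between genotypes was wider than that between replicates of either. Its log2 fold change was 0.91 ± 0.087 (GC-adjusted 0.87). GOLT1A (ENSG00000174567.8, 204198160 to 204214092, minus strand), a Golgi transport protein, was at 11.1 and 10.5 CPM in F133V and 5.27 and 5.88 CPM in wild-type libraries. Its log2 fold change was 0.96 ± 0.11 (GC-adjusted 0.69).

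INAVA, an adaptor protein of innate immune signalling and epithelial junctions, was at 8.36 and 8.08 CPM in F133V and 4.36 and 4.65 CPM in wild-type libraries, a log2 fold change of 0.87 ± 0.11 (GC-adjusted 0.64). LAD1, ladinin 1, an epithelial anchoring protein, was at 9.75 and 9.89 CPM in F133V and 5.35 and 5.44 CPM in wild-type libraries, a log2 fold change of 0.86 ± 0.11 (GC-adjusted 0.60). NFASC, the adhesion protein neurofascin, was at 17.2 and 19.3 CPM in F133V and 10.0 and 10.5 CPM in wild-type libraries, a log2 fold change of 0.83 ± 0.093 (GC-adjusted 0.76). These were epithelial or adhesion genes with levels under 20 CPM in every library. LRRN2, a leucine-rich repeat membrane protein, was at 12.89 and 12.02 CPM in F133V and 7.54 and 7.20 CPM in wild-type libraries, a log2 fold change of 0.76 ± 0.099 (GC-adjusted 0.56). BLACAT1, a long noncoding RNA, was at 12.86 and 13.97 CPM in F133V and 7.59 and 8.86 CPM in wild-type libraries, a log2 fold change of 0.71 ± 0.10 (GC-adjusted 0.61). BLACAT1 shares 11.6% of its exonic bases with other genes on either strand. Reads over several genes were not counted, so the BLACAT1 count may miss some of its reads.

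The 8 largest falls were CAMSAP2, YOD1, ELK4, NUCKS1, UTP25, TIMM17A, ZNF281 and PFKFB2. In each, both F133V libraries were below both wild-type libraries, as in 22 of 93 tested members, against 37.8% of all tested genes. After GC adjustment, CAMSAP2 and UTP25 were still called lower, 5 were not called and NUCKS1 was called higher. F133V replicate 2 was the lowest library in all 8.

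CAMSAP2, which binds the minus ends of microtubules, was at 48.9 and 41.4 CPM in F133V and 79.3 and 80.6 CPM in wild-type libraries, a log2 fold change of -0.82 ± 0.077 (GC-adjusted -0.20 ± 0.043). YOD1, a deubiquitinase of the ER-associated degradation pathway, was at 32.4 and 29.5 CPM in F133V and 53.3 and 53.5 CPM in wild-type libraries, a log2 fold change of -0.79 ± 0.074 (GC-adjusted -0.08). ELK4, an ETS factor that works with serum response factor, was at 42.2 and 37.6 CPM in F133V and 65.5 and 62.6 CPM in wild-type libraries, a log2 fold change of -0.68 ± 0.074 (GC-adjusted -0.02). These 3 transcripts had GC contents of 38.5%, 36.0% and 38.5%. NUCKS1, a chromatin-associated DNA repair protein, was at 509 and 461 CPM in F133V and 667 and 674 CPM in wild-type libraries. Its log2 fold change of -0.47 ± 0.058 turned to 0.12 ± 0.032 GC-adjusted, so its direction is not settled. Its transcript had a GC content of 39.0%.

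UTP25, a nucleolar factor of ribosome biogenesis, was at 36.7 and 33.9 CPM in F133V and 47.6 and 49.4 CPM in wild-type libraries, a log2 fold change of -0.46 ± 0.073 (GC-adjusted -0.15). TIMM17A, a subunit of the mitochondrial inner membrane import channel, was at 81.1 and 75.9 CPM in F133V and 105.7 and 105.8 CPM in wild-type libraries, a log2 fold change of -0.43 ± 0.065 (GC-adjusted -0.03). Both are housekeeping genes of organelles. ZNF281, a zinc finger transcription factor, was at 53.8 and 49.8 CPM in F133V and 65.6 and 70.2 CPM in wild-type libraries, a log2 fold change of -0.39 ± 0.071 (GC-adjusted -0.02). PFKFB2, which makes and degrades the glycolytic activator fructose 2,6-bisphosphate, was at 37.269 and 34.997 CPM in F133V and 47.7 and 46.9 CPM in wild-type libraries, a log2 fold change of -0.39 ± 0.072 (GC-adjusted -0.09).

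**Figure D4:**
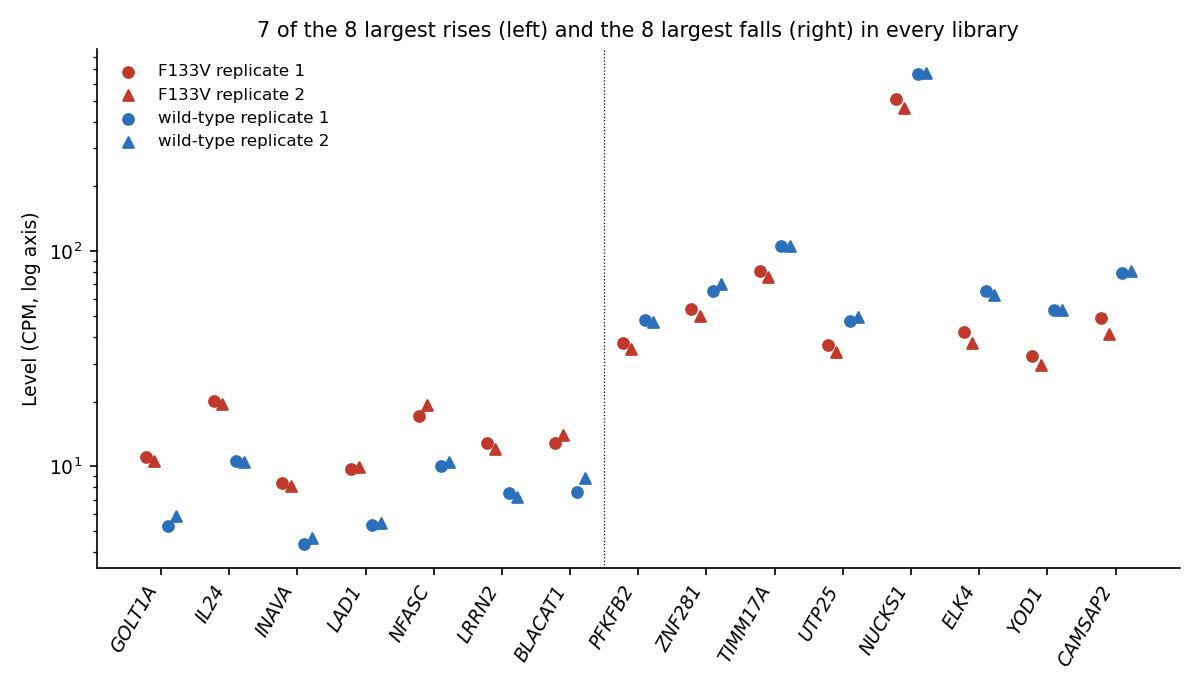
Level in CPM (log axis) of 7 of the 8 largest rises (left of the dotted line) and the 8 largest falls (right) in each of the 4 libraries; red points are F133V, blue points wild-type, circles replicate 1 and triangles replicate 2. The rises shown lay between 4.36 and 20.1 CPM, and the genotypes do not overlap in any of the 15 genes, which were chosen for that.

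Members were also grouped into 11 role lists, written with earlier results of these data known, so the counts are a description. The counts of every list stand beside 27.2% of all tested genes called higher and 27.6% called lower. With GC adjustment these shares were 27.6% and 24.5%. Lists of so few genes can lie near or far from these shares without meaning. In the list of epithelial adhesion and surface genes, 7 of 8 tested members were called higher and 0 lower, in both fits, with a median log2 fold change of 0.85 (GC-adjusted 0.62), beside 27.2% of all tested genes called higher, or 27.6% GC-adjusted. The list was written with these values known, so its count is no independent evidence of a direction. Besides INAVA, LAD1, NFASC, LRRN2 and PLEKHA6 these were LGR6, a receptor for R-spondins, and LEMD1, a LEM domain protein better known from testis and tumours than from adhesion. PLEKHA6, a junction adaptor, was at 11.8 and 11.4 CPM in F133V and 8.30 and 9.05 CPM in wild-type libraries, a log2 fold change of 0.42 ± 0.098 (GC-adjusted 0.29); without wild-type replicate 1 it was 0.36 and was not called. The member not called, PKP1, a desmosomal plaque protein, was at 7.46 and 6.66 CPM in F133V and 6.62 and 7.51 CPM in wild-type libraries, which overlap. Of the 10 listed genes, CTSE and CNTN2 were not tested.

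In the list of transporters, receptors and membrane enzymes, 4 of 7 tested members were called higher and 0 lower, with a median of 0.35; after GC adjustment 5 were called higher, with a median of 0.22. ADIPOR1, an adiponectin receptor, was at 203.9 and 205.4 CPM in F133V and 161.5 and 159.8 CPM in wild-type libraries, a log2 fold change of 0.35 ± 0.058 (GC-adjusted 0.22). It was among the 3 members of highest level per length, 83.9 CPM per kb of its longest transcript, with SNRPE at 91.7 and NUCKS1 at 88.9. ATP2B4, a plasma membrane calcium pump, was at 298 and 281 CPM in F133V and 260 and 275 CPM in wild-type libraries; at 0.11 ± 0.059 it was not called, and at 0.24 GC-adjusted it was. SLC41A1, a magnesium transporter, was at 126 and 132 CPM in F133V and 120 and 125 CPM in wild-type libraries, with log2 fold changes of 0.08 and -0.03 that were not called. HSD11B1 and SLC26A9 were not tested.

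In the kinase list, 5 of 7 tested members were called higher and 1 lower, with a median of 0.27; after GC adjustment 5 were called higher, 0 lower, with a median of 0.20. NUAK2, a kinase of the AMPK family, was at 57.3 and 63.1 CPM in F133V and 38.8 and 40.4 CPM in wild-type libraries, a log2 fold change of 0.60 ± 0.073 (GC-adjusted 0.38). MAPKAPK2, a kinase downstream of p38, was at 158 and 170 CPM in F133V and 135 and 137 CPM in wild-type libraries. Its log2 fold change of 0.27 ± 0.061 was called, and its GC-adjusted value of 0.03 was not; without wild-type replicate 1 or 2 it was 0.26 and 0.28 and was not called. DSTYK, a dual-specificity kinase, lay between 50.1 and 52.4 CPM in all 4 libraries, with a log2 fold change of 0.00 ± 0.07 that was 0.13 and called GC-adjusted.

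In the transcription and chromatin list, 2 of 7 tested members were called higher and 3 lower, with a median of -0.19; after GC adjustment 3 were called higher and 0 lower, with a median of 0.14. ELK4 and ZNF281 are given above. RBBP5 is a core subunit of the MLL methyltransferase complexes. It was at 51.1 and 46.5 CPM in F133V and 49.1 and 47.2 CPM in wild-type libraries, which overlap. Its log2 fold change of 0.02 ± 0.073 was not called, and its GC-adjusted value of 0.25 was. ZBED6 and ZC3H11A share 96.0% and 93.6% of their exonic bases with another gene, so their values, under 2 CPM, are uncertain; ZBED6 was 1 of the 3 called lower.

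The p53 list held MDM4 and the p53-inducible BTG2 and PHLDA3; 1 was called higher, 1 lower and 1 was not called. MDM4 was at 24.4 and 22.3 CPM in F133V and 31.7 and 28.1 CPM in wild-type libraries, a log2 fold change of -0.36 ± 0.083, which was -0.27 and not called without wild-type replicate 1. It was 0.05 ± 0.059 GC-adjusted and not called. PHLDA3, an inhibitor of AKT, was at 39.7 and 45.1 CPM in F133V and 29.9 and 30.9 CPM in wild-type libraries, a log2 fold change of 0.48 ± 0.078 (GC-adjusted 0.21). PHLDA3 shares 19.1% of its exonic bases with other genes on either strand, so its count may likewise miss some of its reads. BTG2, an antiproliferative gene, was at 13.1 and 13.6 CPM in F133V and 11.1 and 12.3 CPM in wild-type libraries, a log2 fold change of 0.19 ± 0.093 that was not called.

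The list of a stress phosphatase, a deubiquitinase, import and RNA processing had 0 of 7 tested members called higher and 6 lower, with a median of -0.25. After GC adjustment 1 was called lower, with a median of -0.05. IPO9, an importer of histones and other nuclear proteins, was at 204 and 198 CPM in F133V and 230 and 237 CPM in wild-type libraries, a log2 fold change of -0.22 ± 0.058 (GC-adjusted -0.05). PPP1R15B, which directs the dephosphorylation of eIF2-alpha, was at 99.3 and 91.9 CPM in F133V and 107.1 and 109.5 CPM in wild-type libraries, a log2 fold change of -0.18 ± 0.064 (GC-adjusted 0.09, not called). Neither was called without wild-type replicate 1, at -0.24 and -0.20, or without wild-type replicate 2, at -0.20 and -0.16.

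Of the 4 genes for proliferation, DNA repair and splicing, 1 was called higher and 2 lower, and after GC adjustment 3 higher and 1 lower. UBE2T, the ubiquitin-conjugating enzyme of the Fanconi anemia pathway, was at 79.6 and 76.6 CPM in F133V and 76.7 and 74.0 CPM in wild-type libraries. Its log2 fold change of 0.05 ± 0.065 was not called, and its GC-adjusted value of 0.47 ± 0.041 was. SNRPE, a core spliceosomal protein, was at 83.4 and 77.7 CPM in F133V and 98.0 and 95.5 CPM in wild-type libraries, a log2 fold change of -0.26 ± 0.065 (GC-adjusted -0.30). It was not called without wild-type replicate 1 or 2, at -0.25 and -0.28. The UBE2T transcript had a GC content of 40.1%, and its genotypes overlapped without adjustment.

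In the list of cytoskeleton and muscle proteins, 4 of 8 tested members were called higher and 1 lower, with a median of 0.15; after GC adjustment 4 were higher and 2 lower, with a median of 0.11. CSRP1, a LIM domain protein of the actin cytoskeleton, was at 187 and 199 CPM in F133V and 172 and 169 CPM in wild-type libraries, a log2 fold change of 0.18 ± 0.06 (GC-adjusted 0.21). Without wild-type replicate 1 or 2 it was 0.19 and 0.17 and was not called. NAV1, a microtubule-associated protein, was at 85.1 and 85.4 CPM in F133V and 78.8 and 78.4 CPM in wild-type libraries. Its log2 fold change of 0.12 ± 0.064 was not called, and its GC-adjusted value of 0.13 was. SRGAP2, a RAC GTPase-activating protein, was at 73.0 and 74.2 CPM in F133V and 78.7 and 79.1 CPM in wild-type libraries, a log2 fold change of -0.10 ± 0.065 (GC-adjusted -0.09). It has near-identical copies elsewhere on chromosome 1, so its count is uncertain. Of the muscle genes, TNNI1, LMOD1 and IGFN1 were not tested. TNNT2 passed the filter through the F133V libraries only, so its direction was set by the filter.

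In the vesicle traffic list, 3 of 5 tested members were called higher and 0 lower, with a median of 0.33; after GC adjustment 2 were called higher, with a median of 0.08. TMEM9, a lysosomal membrane protein, was at 127 and 135 CPM in F133V and 96.4 and 94.6 CPM in wild-type libraries, a log2 fold change of 0.46 ± 0.063 (GC-adjusted 0.28). RAB29, a small GTPase of the Golgi, was at 68.9 and 64.3 CPM in F133V and 66.7 and 69.0 CPM in wild-type libraries, which overlap.

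**Figure D5:**
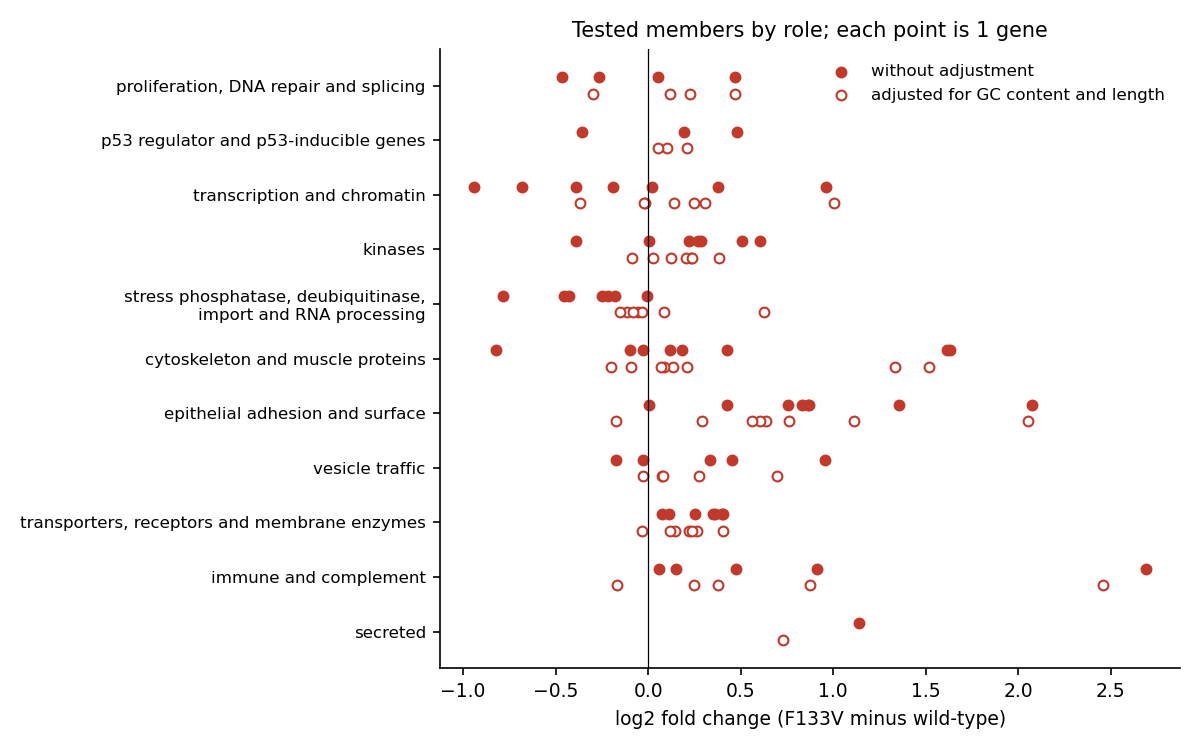
Log2 fold change (F133V minus wild-type) of each tested member in 11 role lists, filled points without adjustment and open points adjusted for GC content and length; each point is 1 gene. The epithelial adhesion and surface list, written with the values known, has 7 of 8 tested members called higher in both fits, beside 27.2% and 27.6% of all tested genes, and the list with a stress phosphatase and import genes moves from a median of -0.25 to -0.05 with the adjustment.

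Of the immune and complement list, 13 of 18 members had too few reads to be tested. Of the 5 tested, 3 were called higher and 0 lower, in both fits, with a median of 0.47 (GC-adjusted 0.38). RASSF5, a RAS effector, was at 9.78 and 10.1 CPM in F133V and 7.39 and 6.89 CPM in wild-type libraries, a log2 fold change of 0.47 ± 0.10 (GC-adjusted 0.38). FCMR, a receptor for IgM next to IL24, was at 6.76 and 6.43 CPM in F133V and 6.85 and 5.77 CPM in wild-type libraries, which overlap. IL20, a cytokine gene on the other side of IL24, had 5 and 5 reads in F133V and 0 and 0 in wild-type libraries and was not tested.

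The members with changes of at least 2-fold were all of low level. A total of 9 were called at least 2-fold higher and 0 at least 2-fold lower; of all tested genes 4.18% and 2.81% were. Of the 9, 3 passed the filter through the F133V libraries only, CHI3L1 among them, so their direction was set by the filter and the counts are a description only. All 9 had a mean F133V level under 5 CPM, and those named next were chosen after their values were seen. CHI3L1, a secreted chitinase-like glycoprotein, had 47 and 35 reads in F133V and 7 and 6 in wild-type libraries, a log2 fold change of 2.69 ± 0.35 (GC-adjusted 2.46). LEMD1, whose span holds miR-135b, was at 1.39 and 1.33 CPM in F133V and 0.280 and 0.364 CPM in wild-type libraries. Its log2 fold change was 2.08 ± 0.29 (GC-adjusted 2.05), and it shares 31.4% of its exonic bases with other genes. LGR6 was at 1.498 and 1.445 CPM in F133V and 0.586 and 0.560 CPM in wild-type libraries, a log2 fold change of 1.35 ± 0.24 (GC-adjusted 1.11). KISS1, the only tested gene of the secreted list and precursor of kisspeptin, was at 0.954 and 0.878 CPM in F133V and 0.433 and 0.392 CPM in wild-type libraries. Its log2 fold change was 1.14 ± 0.29 (GC-adjusted 0.73), and it was not called by DESeq2. HSD11B1-AS1, at 4.11 and 4.31 CPM in F133V and 1.91 and 1.82 CPM in wild-type libraries, had a log2 fold change of 1.17 ± 0.15 (GC-adjusted 1.04). G0S2, an inhibitor of lipolysis whose gene lies within the span of HSD11B1-AS1, went the other way, at 43.2 and 48.2 CPM in F133V and 54.1 and 53.3 CPM in wild-type libraries, a log2 fold change of -0.23 ± 0.073 (GC-adjusted -0.53); the pair share no exonic base.

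MIR29B2CHG, the host of miR-29b-2 and miR-29c, was at 2.04 and 2.01 CPM in F133V and 1.10 and 1.04 CPM in wild-type libraries, a log2 fold change of 0.92 ± 0.20 (GC-adjusted 0.97). It was chosen after its values were seen. Of the 20 tested members that are not protein-coding, 11 were called higher, 0 lower and 9 not, beside 27.2% higher and 27.6% lower of all tested genes; after GC adjustment 8 were called higher and 0 lower, beside 27.6% and 24.5%. Of these 20, 4 passed the filter through the F133V libraries only, and 1 of the 4 was among the 11. The labels do not say whether counting used strand, so reads of antisense members and of the genes they overlap cannot be told apart.

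Promoters of 71 of the 93 tested members were found by symbol in RefSeq (GRCh38.p14), each 300 bases, 250 before and 50 after the start. Of these, 39 had their transcribed end within a GENCODE transcript of the same gene and strand, and the counts below are over all 71. Their median GC content was 63.0%, against 58.7% over 35116 promoters, and 55 of 71 held 10 or more CG dinucleotides, against 56.4% of all. Each was searched on both strands for 5 short motifs. The calls used for these counts are those without adjustment. After GC adjustment, 4 of the 16 members called lower and 36 of the 46 called higher kept their call. Motif counts by GC-adjusted call were not made. The letters CCGGAAG, the core of sites for ETS factors, stood in 4 of 14 promoters of members called lower, 0 of 35 called higher and 0 of 22 not called, against 10.3% of all promoters. Of those 4 members, SNRPE was still called lower after GC adjustment, while PPP1R15B, MDM4 and ELK4 were not called. The SNRPE stretch has the ETS letters at base 10, followed by what reads as the start of the SNRPE coding sequence. It may therefore lie mostly after the main start of that gene, and its match is uncertain as a promoter match. The GC box, searched as GGGGCGGGG, stood in 12 of 35 promoters of members called higher, 1 of 14 called lower and 2 of 22 not called, against 15.7% of all. The CCAAT box, searched by those 5 letters, was in 9 of 35 promoters of members called higher, 7 of 14 called lower and 8 of 22 not called, against 34.6% of all. The TATA box, searched as TATAAA, was in 5 called higher, 0 called lower and 1 not called, against 11.5% of all. The site of the AP-1 factors, searched as TGACTCA, was in 1 called higher, 1 called lower and 2 not called, against 4.95% of all. A match is a description of letters, not a bound site. The 4 promoters below show a pair called higher, with GC box or CCAAT letters, and a pair called lower, with ETS letters; capitals mark all matches of the 5 motifs. They were picked from members whose values were already seen.
IL24 promoter, chr1:206897193-206897492, plus strand: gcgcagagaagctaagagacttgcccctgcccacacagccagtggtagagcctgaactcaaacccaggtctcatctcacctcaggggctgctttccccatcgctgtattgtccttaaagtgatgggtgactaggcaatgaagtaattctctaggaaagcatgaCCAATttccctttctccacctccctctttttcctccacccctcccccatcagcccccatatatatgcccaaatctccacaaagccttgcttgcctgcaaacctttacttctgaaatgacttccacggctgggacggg
GOLT1A promoter, chr1:204213939-204214238, minus strand: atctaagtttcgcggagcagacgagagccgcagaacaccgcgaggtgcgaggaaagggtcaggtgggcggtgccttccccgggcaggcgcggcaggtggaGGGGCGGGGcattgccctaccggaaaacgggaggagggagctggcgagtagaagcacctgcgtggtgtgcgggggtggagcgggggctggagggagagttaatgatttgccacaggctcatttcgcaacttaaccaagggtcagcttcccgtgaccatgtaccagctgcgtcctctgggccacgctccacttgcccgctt
MDM4 promoter, chr1:204516156-204516455, plus strand: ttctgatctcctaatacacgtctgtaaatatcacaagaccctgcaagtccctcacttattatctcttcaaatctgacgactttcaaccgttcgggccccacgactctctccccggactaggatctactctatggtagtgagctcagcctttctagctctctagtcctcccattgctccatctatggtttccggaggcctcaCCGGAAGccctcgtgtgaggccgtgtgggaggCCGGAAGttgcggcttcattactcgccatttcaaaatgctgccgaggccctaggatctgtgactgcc
ELK4 promoter, chr1:205631962-205632261, minus strand: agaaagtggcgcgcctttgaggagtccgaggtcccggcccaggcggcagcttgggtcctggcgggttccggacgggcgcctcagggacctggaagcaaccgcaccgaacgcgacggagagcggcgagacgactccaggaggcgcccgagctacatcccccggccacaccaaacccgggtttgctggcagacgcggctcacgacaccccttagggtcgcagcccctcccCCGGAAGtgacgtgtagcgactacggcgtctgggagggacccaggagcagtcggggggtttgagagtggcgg
MDM4 held the ETS letters at bases 202 and 234 and ELK4 at base 229, counted from 1 at the 5′ end of each printed promoter. GOLT1A held the GC box at base 101 and IL24 the CCAAT letters at base 164. Both members with the ETS letters shown were lower without adjustment and at 0.05 and -0.02 after GC adjustment, while IL24 and GOLT1A were called higher in both fits.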

How the data were processed

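The genotype label put 2 DU145 RNA-seq libraries each into F133V and wild-type groups. The deposited files hold raw counts, 1 value for each gene in each library. Single reads of 75 bases were sequenced, per the labels' protocols, and TopHat2 2.0.10, HTSeq 0.6.0 and build hg38 are named in the submitters' processing notes; the sources used here give neither the annotation release nor the strand setting. The counter's tallies stayed out of all library sizes; reads over no gene made up 6.12% to 6.53% of reads, reads over several genes 3.50% to 3.73% and reads with several alignments 13.6% to 16.6%. GENCODE release 29 gave positions for 58324 of 60614 IDs; a gene start is its lowest coordinate.

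The test was that of edgeR 4.0.16 under R 4.3.3 (filterByExpr, TMM, quasi-likelihood F-test, two-sided, Benjamini-Hochberg over 17539 genes, threshold 0.05); 2 residual degrees of freedom remain. SEs are the fold change over the square root of F. The GC adjustment smooths each library's log2 deviation on GC content and log2 length of the longest transcript (mgcv 1.9.3, basis dimension 8, genes above a mean log2 CPM of 2) and enters it as an offset; 17299 genes had values. It also removes real differences that follow GC content. The fit without adjustment was run on simulated counts that had the same dispersion for every gene and no trend along GC content. That run therefore cannot show how the fit behaves where fold changes follow GC content, as they do here. The GC adjustment was not simulated. Counting error is small except at low counts.

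The members, the role lists and the adjustment were chosen with earlier results of these data known. Named genes are the 8 largest called rises and falls with genotypes that do not overlap and at least 5 CPM in the higher genotype, the 5 of highest CPM, and up to 3 of highest CPM per role list, 40 in all; some of them are not reported here. Alternatives were other scalings, DESeq2 1.42.0, no filter, a replicate block, the GC offset and leaving out each library. Nothing in the labels says that equal replicate numbers mark a pair.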

Additional observations from a re-analysis of the deposited data

How the results depend on the processing

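The tested members had a positive median log2 fold change, and lay above the flanks, under every alternative run here. The median, 0.29 with all libraries, was 0.27 with DESeq2 size factors in edgeR, 0.27 with DESeq2's own fit, 0.40 with upper-quartile scaling and 0.38 with no filter on low counts. Upper-quartile scaling moved the median of all genes from 0.02 to 0.13, so the members lay 0.27 above it in both, and it called 55 members higher and 11 lower. The median was 0.19 over protein-coding members, 0.20 over the 64 members above a mean log2 CPM of 2 (0.13 with the GC and length offset), 0.23 with the 12 genes set aside put back (added after the data were seen), and 0.25 to 0.31 when each library was left out. With the GC and length offset it was 0.21, and 0.21 also with the replicate block added (0.2104); 6 and 5 members were then called lower, and the members lay 0.16 above the flanks in both (0.1576 and 0.1564). With the offset and without F133V replicate 2, added after the data were seen, the median was 0.22, 6 members were called lower and the members lay 0.19 above the flanks. The distance from the flanks, 0.57 at first, was 0.41 without F133V replicate 2, 0.41 to 0.63 over all libraries left out, 0.72 over members above a mean log2 CPM of 2 and 0.44 with flanks of 5 Mb. The replicate block alone called 49 higher and 16 lower; samples of the same number did not deviate together (correlation -0.05 across 11818 genes). Without a library, 9 to 20 members were called lower and 35 to 46 higher.

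Of the 40 named members, 6 changed sign with the GC and length offset. RAB29, SLC41A1 and FCMR were not called in either fit, and 3 had been called lower: PPP1R15B (0.087, also with the replicate block, and 0.10 without F133V replicate 2), MDM4 (0.053, also with the block, and 0.042) and NUCKS1 (0.118, also with the block, and 0.103). RAB29 gave 0.107 with the offset and without F133V replicate 2. The offset ended 8 other calls and added 6. Leaving out wild-type replicate 1 or 2 ended 7 and 6 calls. The cause was not tested. With 2 libraries per genotype, members under about 1 CPM rest on few reads.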

Other observations

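Members below the test's filter had few reads in either genotype. MIR205HG, host of an epithelial miRNA, had 0 reads in all 4 libraries, as did CR1 and PTPN7. IL10 had 0 and 2 reads in F133V and 0 and 0 in wild-type libraries, and PIGR, the polymeric immunoglobulin receptor, had 2 and 1 in F133V and 1 and 2 in wild-type libraries. MYOG, a muscle transcription factor, had 7 and 5 in F133V and 2 and 4 in wild-type libraries.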
